A study of Mus musculus with 9 samples.

Results

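Transcript levels of 33 imprinted genes were examined among the 24318 genes listed for N2A cells, a mouse neuroblastoma line. The members were taken by name from a fixed list and comprise 27 protein-coding and 6 noncoding genes. This list and the other gene lists below were chosen with earlier results of these data known, so their shares are descriptive. All cells were N2A cells transfected with siRNA: scramble (the control, labelled wild type), EXOSC3 (labelled EXOSC3 knockdown) or DDX1 (labelled DDX1 knockdown), each with 3 libraries, 9 in all. EXOSC3 is a cap subunit of the RNA exosome, which degrades and processes RNA, and DDX1 is a putative RNA helicase. The time between transfection and harvest is not given in the sources used here, the replicates are plates of a single cell line, and the p-values measure the spread between such plates. Ribosomal RNA was removed before nondirectional library preparation, so genes that overlap on opposite strands cannot be told apart.

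Imprinted genes are transcribed mainly from the copy inherited from the mother or mainly from the copy inherited from the father. Most lie in clusters, where an imprinting control region carries DNA methylation on 1 parental copy, and several clusters produce a long noncoding RNA from the copy on which the neighbouring coding genes are silent. Many of these genes act in fetal growth, the placenta and the nervous system, and in some of them the parental bias is restricted to neurons or to single isoforms. The values examined here pool both parental copies, so parental origin was not measured.

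Levels are FPKM, fragment counts scaled to transcript length and to the depth of the library, which the authors deposited in 2 tables, 1 for each knockdown, with the same 3 scramble libraries in both. Each knockdown was compared with scramble within its own table, and since both comparisons use these 3 scramble libraries the results are not independent. A gene was tested where its mean over the 6 libraries of a table was at least 1 FPKM. Log2(FPKM + 1) was tested with limma over all such genes, and a gene is called increased or decreased at a Benjamini-Hochberg adjusted p-value under 0.05. Log2 fold changes are on this log2(FPKM + 1) scale and understate the change of low genes.

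Depletion was read from the targeted transcripts. Exosc3 stood at 15.5% ± 1.90 (SD, n = 3) of scramble in siEXOSC3 cells and Ddx1 at 24.4% ± 2.99 (SD, n = 3) in siDDX1 cells. Read depth relative to scramble replicate 1, estimated from the smallest FPKM steps, lay between 0.83 and 1.20, and the absolute depth is unknown. Over all genes, siEXOSC3 gave 1877 increased and 1767 decreased of 11242 tested, and siDDX1 gave 623 and 559 of 11104. The counts of both knockdowns depended on single libraries. For siEXOSC3 they were 1027 and 583 without scramble replicate 1, and 2379 and 2508 without siEXOSC3 replicate 2, and for siDDX1 they were 1818 and 1706 without siDDX1 replicate 3, and 95 and 65 without scramble replicate 3. Of 14 neuroblast and sympathetic marker genes, 13 were expressed highly enough to be tested. Markers of other cell types included genes below 0.1 FPKM in every library (Ptprc of blood, Cdh5 of endothelium, Aqp4 of glia and Col1a2 of fibroblasts) and expressed ones, since Pecam1 of endothelium lay from 3.80 to 9.08 FPKM and Acta2 of fibroblasts from 6.04 to 11.03 FPKM in the siEXOSC3 table.

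In scramble cells the imprinted genes spanned from a listed value of 0 to 554 FPKM. In the siEXOSC3 table, 3 members had a scramble mean of at least 100 FPKM: Gnas (554), which encodes the stimulatory G protein alpha subunit, Mest (206), a hydrolase-like protein, and Impact (120), a regulator of translation. A further 5 lay from 10 to under 100 FPKM, namely Peg10 (77.6), Ube3a (58.2), Sgce (47.5), Blcap (28.8) and Peg3 (22.4). Another 8 lay from 1 to under 10 FPKM: Snrpn (8.76), Phlda2 (3.20), Nnat (2.58), Mkrn3 (2.52), Kcnq1ot1 (2.26), Grb10 (2.13), Igf2r (1.33) and Rian (1.25). The scramble ranges of neighbours in this order overlapped only for Nnat and Mkrn3, Mkrn3 and Kcnq1ot1, Kcnq1ot1 and Grb10, and Igf2r and Rian. Of the remaining 17 members, 8 had scramble means from 0.1 to under 1 FPKM, 7 were lower but above 0, and 2 (Ndn and Peg12) were listed at 0 in every scramble library. After filtering, 16 members could be tested for siEXOSC3 and 17 for siDDX1, the additional one being Zrsr1, a splicing factor gene inside an intron of Commd1. Zrsr1 had a scramble mean of 0.945 FPKM in the siDDX1 table and passed the filter through the siDDX1 libraries.

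**Figure D1:**
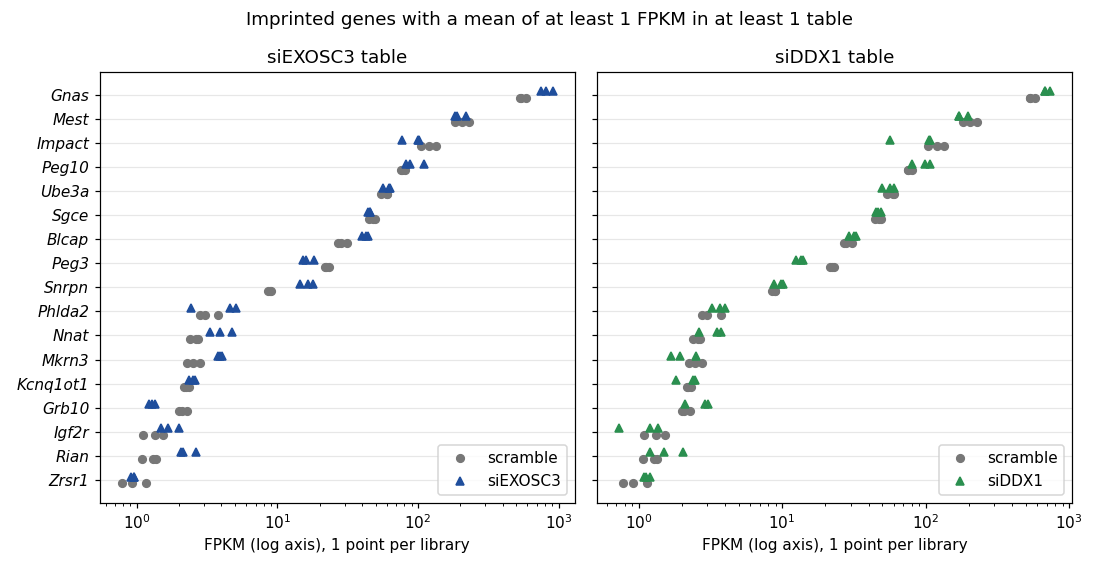
FPKM of the 17 imprinted genes with a mean of at least 1 in at least 1 table (horizontal log axis), 1 point per library, with scramble as grey circles and the knockdown as triangles. Gnas stood highest, with scramble values from 534 to 583 FPKM in the siEXOSC3 table, and the siEXOSC3 triangles of Snrpn (14.5 to 18.0 FPKM) lay to the right of the scramble circles (8.52 to 8.93).

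In siEXOSC3 cells 6 of the 16 tested imprinted genes increased, namely Snrpn, Gnas, Rian, Blcap, Mkrn3 and Nnat. Another 2, Grb10 and Peg3, decreased, and 8 did not pass the test. Over all genes tested, 16.7% increased and 15.7% decreased in this comparison. The median log2 fold change was 0.22 over the 16 members and -0.01 over all genes tested, and over the members with a mean of at least 5 FPKM it was 0.05. The members' median was 0.09 without the filter, 0.09 after quantile normalization and 0.13 without siEXOSC3 replicate 3. By class, 5 of the 14 coding members tested increased and 2 decreased, while of the 2 noncoding members tested Rian increased and Kcnq1ot1 did not pass. By the parental copy known to be expressed, 3 of the 9 paternally expressed members tested increased (Snrpn, Mkrn3 and Nnat) and 1 decreased (Peg3), 1 of the 3 maternally expressed members increased (Rian), and both isoform-dependent members, Gnas and Blcap, increased. The knockdown values lay wholly above scramble in 7 of the 16 and wholly below in 3, where 23.8% and 25.9% of all genes tested did so.

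In siDDX1 cells 1 of 17 tested imprinted genes increased, Gnas, and 1 decreased, Peg3, while 15 did not pass the test. The Gnas call held in only 1 of 6 fits without 1 library, and was lost without the filter and after quantile normalization. Without siDDX1 replicate 3, 3 members increased. Over all genes tested, 5.61% increased and 5.03% decreased. The median log2 fold change was 0.12 over the 17 members and -0.00059 over all genes tested, but the sign of the members' median depended on the filter, with -0.00496 without it and -0.00195 at a mean of at least 5 FPKM. Without Zrsr1, which passed the filter through the siDDX1 libraries, the counts were again 1 and 1, and the median of the other 16 members was 0.06. Both called members are coding, and neither of the 2 noncoding members tested, Rian and Kcnq1ot1, passed. Values of all 3 siDDX1 libraries lay above scramble for 2 members (Gnas and Peg10) and below for 1 (Peg3), where 17.0% and 17.8% of all genes tested did so. A difference between the 2 knockdowns was not tested, since the tables were scaled separately.

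**Figure D2:**
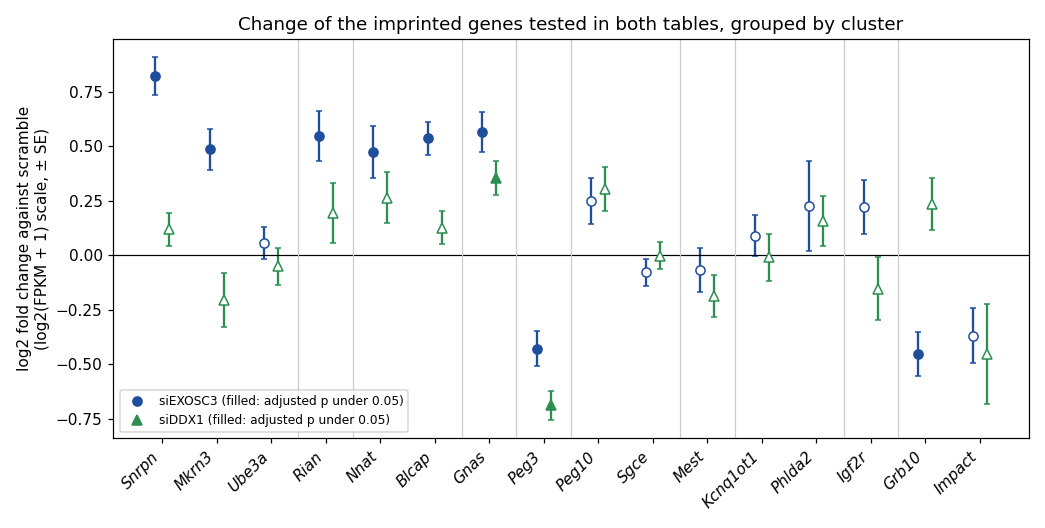
Log2 fold change against scramble (vertical axis, log2(FPKM + 1) scale, ± standard error) of the 16 imprinted genes tested in both tables, grouped by cluster between grey lines, with siEXOSC3 as circles and siDDX1 as triangles and filled symbols for an adjusted p under 0.05. Filled circles run from -0.45 (Grb10) to 0.82 (Snrpn), and the filled triangles are Gnas (0.35) and Peg3 (-0.69).

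The Prader-Willi cluster on chromosome 7 holds 6 members. Snrpn, a paternally expressed gene for a small nuclear ribonucleoprotein polypeptide, lies at chr7:67127388-67285105 on the minus strand of NCBIM37, the sequence of mm9. Its scramble values were 8.85, 8.93 and 8.52 FPKM, and the siEXOSC3 values were 16.4, 14.5 and 18.0 FPKM. Every siEXOSC3 library stood above every scramble library, at 186% ± 20.3 (SD, n = 3) of the scramble mean. The change was 0.82 ± 0.0878 (SE) on the log2 scale, with adjusted p = 9.97e-04 by limma, the largest in size among the tested members, and over the fits without 1 library the adjusted p ranged from 2.79e-04 to 0.00892. In siDDX1 cells Snrpn was at 9.89, 10.1 and 8.79 FPKM against 8.86, 8.95 and 8.49, groups that overlapped (log2 fold change 0.12, adjusted p = 0.336 by limma). Snurf, which is encoded on the same transcript upstream of Snrpn and was looked up after the values of Snrpn had been seen, has a row of its own. It stood at 0.804, 0.806 and 0.856 FPKM in siEXOSC3 cells against 0.838, 0.859 and 0.860 in scramble, and was under the filter. The same scramble libraries were listed for Snurf at 0.751, 0.770 and 0.771 FPKM in the siDDX1 table. Snurf was thus at 96.4% of scramble in siEXOSC3 cells, beside 186% for Snrpn. How the authors' counting divided fragments between Snrpn and Snurf is not given in the sources used here, so the level and the change of each are uncertain.

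Mkrn3, a paternally expressed, single-exon gene for a makorin ring-finger protein, lies at chr7:69562479-69565039 on the minus strand. Its scramble values were 2.49, 2.26 and 2.80 FPKM and its siEXOSC3 values 3.81, 3.92 and 4.02. The groups did not overlap, and the siEXOSC3 mean was 155% ± 4.21 (SD, n = 3) of scramble (a log2 fold change 0.48 ± 0.0951 SE, adjusted p = 0.00791 by limma). In siDDX1 cells Mkrn3 was at 1.68, 1.95 and 2.49 FPKM against 2.47, 2.24 and 2.77, and the ranges overlapped (log2 fold change -0.21, adjusted p = 0.293 by limma). The siDDX1 value was -0.12 without siDDX1 replicate 1 and -0.31 without siDDX1 replicate 3. Ube3a, a ubiquitin ligase gene expressed from the maternal copy in neurons, lies at chr7:66484122-66562097 on the plus strand. It was at 62.0, 63.2 and 56.5 FPKM in siEXOSC3 cells against 60.0, 60.3 and 54.4 in scramble (log2 fold change 0.05 ± 0.0728 SE, adjusted p = 0.583 by limma). The siDDX1 values were 49.8, 56.9 and 60.7 FPKM against 59.5, 59.9 and 53.7 (log2 fold change -0.05, adjusted p = 0.723 by limma). Ube3a overlapped scramble in both tables, beside the separated values of Snrpn and Mkrn3 in siEXOSC3 cells.

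The other cluster members were near the lower limit. Magel2, a MAGE family gene, was at 0.315, 0.213 and 0.300 FPKM in siEXOSC3 cells against 0.125, 0.147 and 0.161, with no overlap. Ndn, the MAGE family gene for necdin, was listed at 0 in every library but siEXOSC3 replicate 1 (0.167 FPKM) and replicate 3 (0.0789 FPKM), and Peg12 was listed at 0 in all 9 libraries. Some zeros in such tables can be failed estimates, so no fold change is given for either gene.

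The Dlk1-Meg3 cluster on chromosome 12 pairs 2 paternally expressed coding genes, Dlk1 and Rtl1, with 3 maternally expressed noncoding RNAs, Meg3, Rian and Mirg. Rian (chr12:110842155-110899919, plus strand) is a host of small nucleolar RNAs and microRNAs and was the only member of the cluster to pass the filter. Its scramble values were 1.29, 1.36 and 1.08 FPKM and its siEXOSC3 values 2.13, 2.07 and 2.63 FPKM. The siEXOSC3 libraries all lay above scramble, at 183% ± 24.4 (SD, n = 3) of its mean (log2 fold change 0.54 ± 0.115 SE, adjusted p = 0.0102 by limma). The call held in 6 of 6 fits without 1 library, with adjusted p from 0.00688 to 0.0429, and with a pseudocount of 0.1 the log2 fold change was 0.82. In siDDX1 cells Rian was at 1.20, 2.02 and 1.49 FPKM against 1.28, 1.35 and 1.07, with overlapping ranges (log2 fold change 0.19 ± 0.135 SE, adjusted p = 0.367 by limma). This value rested on single libraries, with 0.07 without siDDX1 replicate 2 and 0.30 without siDDX1 replicate 1.

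Meg3, the tumour-suppressive long noncoding RNA that heads the maternal transcripts, had values of 0.413, 0.335 and 0.519 FPKM in siEXOSC3 cells against 0.159, 0.207 and 0.180 in scramble. Rtl1, a retrotransposon-derived gene required in the placenta and overlapped on the opposite strand by microRNA genes, had 1.00, 0.845 and 0.891 FPKM against 0.368, 0.450 and 0.542. Both genes were separated from scramble in the siEXOSC3 table, and both overlapped it in the siDDX1 table, where Meg3 was at 0.221, 0.358 and 0.151 FPKM and Rtl1 at 0.272, 0.405 and 0.312 FPKM. With nondirectional libraries, fragments of Rtl1 cannot be told apart from those of transcripts on its opposite strand. Mirg, a microRNA host, lay between 0.0482 and 0.286 FPKM in siEXOSC3 cells and between 0 and 0.152 FPKM in scramble. Dlk1, a transmembrane protein related to the Notch ligands, did not exceed 0.0598 FPKM in any library.

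The mature microRNAs annotated inside Rian are shown because Rian was the noncoding member that passed the test. The sequences are from RefSeq on GRCm38.p6, with the seed, bases 2 to 8, in capitals.
mmu-miR-341-5p: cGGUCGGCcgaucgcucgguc
mmu-miR-341-3p: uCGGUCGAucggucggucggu
mmu-miR-1188-5p: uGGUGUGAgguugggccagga
mmu-miR-1188-3p: uCCGAGGCuccccaccacacccugc
mmu-miR-370-5p: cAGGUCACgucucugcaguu
mmu-miR-370-3p: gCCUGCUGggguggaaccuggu
The 6 seeds all differ from each other. MicroRNAs were not measured in these libraries. The value of Rian is the one listed for the gene, and the annotation behind it is not given in the sources used here.

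The Nnat-Blcap pair on chromosome 2 rose in siEXOSC3 cells. Nnat, the paternally expressed gene for neuronatin, a small membrane protein of developing neurons, lies at chr2:157385814-157388258 on the plus strand, inside the span of Blcap (chr2:157382098-157397010, minus strand). Nnat was at 3.33, 3.92 and 4.74 FPKM in siEXOSC3 cells against 2.40, 2.70 and 2.63 in scramble. The groups did not overlap (log2 fold change 0.47 ± 0.119 SE, adjusted p = 0.0189 by limma), but the adjusted p was 0.0781 without scramble replicate 1, 0.0581 without scramble replicate 3 and 0.0633 after quantile normalization. Blcap, which encodes a small protein first described in bladder cancer, was at 44.1, 39.7 and 42.7 FPKM against 28.2, 27.0 and 31.2 (log2 fold change 0.54 ± 0.0762 SE, adjusted p = 0.00272 by limma). With nondirectional libraries, fragments from the shared stretch cannot be assigned to one strand, so the 2 changes cannot be told apart there. In siDDX1 cells Nnat was at 3.50, 3.74 and 2.64 FPKM against 2.38, 2.68 and 2.60, and Blcap at 31.7, 29.3 and 32.8 FPKM against 28.0, 26.8 and 30.8. The Blcap ranges overlapped, and the lowest siDDX1 value of Nnat lay below the highest of scramble (limma adjusted p = 0.173 for Nnat and 0.283 for Blcap). The Blcap change of 0.13 was 0.08 without scramble replicate 2. The siDDX1 change of Nnat ranged from 0.19 without siDDX1 replicate 2 (adjusted p = 0.421) to 0.38 without siDDX1 replicate 3 (adjusted p = 0.0177).

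Gnas (chr2:174109821-174172245, plus strand) gives rise to maternal, paternal and biallelic isoforms and is overlapped by the antisense transcript Nespas. Its scramble values were 534, 583 and 544 FPKM and its siEXOSC3 values 810.5, 744 and 913 FPKM. All siEXOSC3 libraries were above scramble, at 149% ± 15.4 (SD, n = 3) of its mean (log2 fold change 0.57 ± 0.0911 SE, adjusted p = 0.00403 by limma). The siDDX1 values were 682, 741 and 679.5 FPKM against 529.9, 579 and 537, again without overlap, at 128% ± 6.33 (SD, n = 3) of scramble. The change was 0.35 ± 0.0781 (SE) on the log2 scale, with adjusted p = 0.0283 by limma. This siDDX1 call was lost in 5 of the 6 fits without 1 library, with adjusted p up to 0.139, and held only without siDDX1 replicate 3 (0.00571). It was also lost after quantile normalization (log2 fold change 0.18, adjusted p = 0.0957) and without the filter (adjusted p = 0.0508).

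Peg3 was below scramble in both knockdowns. It is a paternally expressed zinc finger gene of the proximal chromosome 7 cluster (chr7:6656603-6683132, minus strand), with functions in fetal growth and maternal behaviour. In siEXOSC3 cells it was at 15.2, 15.9 and 18.1 FPKM against 21.6, 22.3 and 23.3, or 73.4% ± 6.75 (SD, n = 3) of scramble. The change was -0.43 ± 0.0799 (SE) on the log2 scale, with adjusted p = 0.00673 by limma. After DDX1 siRNA Peg3 stood at 13.6, 14.1 and 12.6 FPKM against 21.5, 22.1 and 23.1, or 60.4% ± 3.50 (SD, n = 3) of scramble. The change was -0.69 ± 0.0683 (SE) on the log2 scale, with adjusted p = 0.00403 by limma. Each group lay wholly below the common scramble libraries, and each call held in 6 of 6 fits without 1 library, with adjusted p up to 0.0338 for siEXOSC3 and 0.0369 for siDDX1.

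The other members of the Peg3 cluster were under the filter. Usp29 is a ubiquitin-specific peptidase gene that starts 96 bases from Peg3 on the opposite strand in GRCm38.p6. The NCBIM37 annotation used for the other positions lists it as 1 exon at chr7:6913871-6916480, without that start. Usp29 was at 0.515, 0.604 and 0.814 FPKM in siEXOSC3 cells against 0.502, 0.512 and 0.393. The siDDX1 values were 0.315, 0.331 and 0.369 FPKM against 0.498, 0.508 and 0.389. The siEXOSC3 values of Usp29 were thus above scramble and the siDDX1 values below, but by margins as small as 0.515 against 0.512 FPKM. Zim1, a maternally expressed zinc finger gene, lay between 0.0821 and 0.172 FPKM in siEXOSC3 cells and between 0.0290 and 0.0588 FPKM in siDDX1 cells, against 0.0707 to 0.108 FPKM in scramble.

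Grb10, an adaptor that dampens insulin and growth factor receptor signalling, is expressed from the maternal copy in most tissues and from the paternal copy in neurons. Its values were 1.29, 1.34 and 1.22 FPKM in siEXOSC3 cells against 2.01, 2.09 and 2.29 in scramble. The groups were separated, with siEXOSC3 at 60.3% ± 2.84 (SD, n = 3) of scramble libraries (log2 fold change -0.45 ± 0.1003 SE, adjusted p = 0.0119 by limma). The adjusted p was 0.0506 without scramble replicate 3, and the log2 fold change was -0.69 with a pseudocount of 0.1. In siDDX1 cells Grb10 was at 2.11, 2.91 and 3.02 FPKM against 1.99, 2.08 and 2.26, with overlap (log2 fold change 0.23 ± 0.120 SE, adjusted p = 0.228 by limma). This value was 0.35 without siDDX1 replicate 1.

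**Figure D3:**
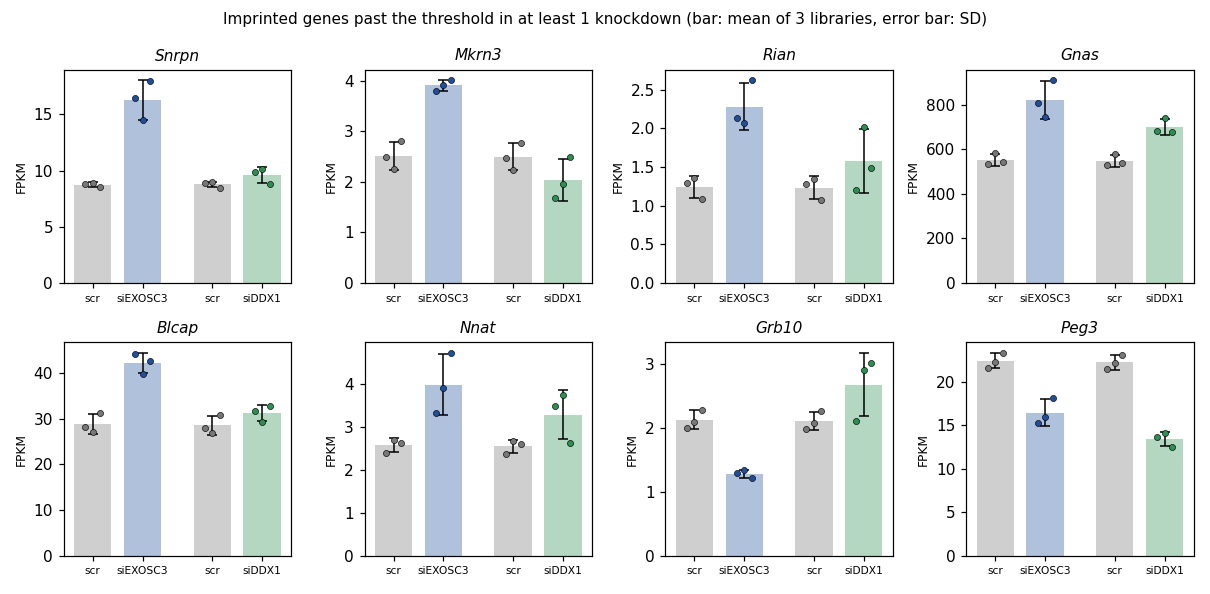
FPKM (vertical axis, from 0) of the 8 imprinted genes past the threshold in at least 1 knockdown, with the bar at the mean of 3 libraries, the error bar at 1 SD, each library as a point, and the scramble bar (scr) of the same table to the left of each knockdown. Peg3 fell in both tables, to 16.4 FPKM (siEXOSC3) and 13.4 FPKM (siDDX1), whereas the siDDX1 points of Snrpn, Mkrn3, Rian, Blcap, Nnat and Grb10 overlap those of scramble.

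Promoter sequences are shown for Peg3, which decreased in both knockdowns, and for the members with a single RefSeq window that increased in siEXOSC3 cells (Rian, Nnat, Blcap and Mkrn3). The windows are the 250 bases before the start used in a RefSeq table of GRCm38.p6. For Blcap that start lies inside the gene span given above for NCBIM37, so the Blcap window is internal to that span and not before its outermost start. Each matched NCBIM37 at 1 place, given here, and is written 5′ to 3′ on the strand of the gene, with every CpG, the dinucleotide at which DNA methylation occurs, in capitals.
Rian promoter, chr12:110841905-110842154, plus strand: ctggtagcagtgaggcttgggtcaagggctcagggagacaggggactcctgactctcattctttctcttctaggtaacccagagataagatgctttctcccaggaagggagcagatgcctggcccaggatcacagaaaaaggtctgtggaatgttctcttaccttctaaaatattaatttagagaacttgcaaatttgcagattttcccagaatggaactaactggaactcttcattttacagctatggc
Nnat promoter, chr2:157385564-157385813, plus strand: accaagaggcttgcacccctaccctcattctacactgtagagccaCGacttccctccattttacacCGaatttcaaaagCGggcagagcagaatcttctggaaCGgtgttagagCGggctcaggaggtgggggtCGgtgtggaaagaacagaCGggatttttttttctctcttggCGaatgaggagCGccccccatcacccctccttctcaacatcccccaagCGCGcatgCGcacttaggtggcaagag
Blcap promoter, chr2:157392098-157392347, minus strand: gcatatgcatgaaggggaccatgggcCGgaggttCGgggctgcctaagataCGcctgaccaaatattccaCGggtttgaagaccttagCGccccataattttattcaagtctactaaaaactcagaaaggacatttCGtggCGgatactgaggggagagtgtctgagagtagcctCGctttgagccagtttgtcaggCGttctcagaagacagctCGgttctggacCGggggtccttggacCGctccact
Mkrn3 promoter, chr7:69565040-69565289, minus strand: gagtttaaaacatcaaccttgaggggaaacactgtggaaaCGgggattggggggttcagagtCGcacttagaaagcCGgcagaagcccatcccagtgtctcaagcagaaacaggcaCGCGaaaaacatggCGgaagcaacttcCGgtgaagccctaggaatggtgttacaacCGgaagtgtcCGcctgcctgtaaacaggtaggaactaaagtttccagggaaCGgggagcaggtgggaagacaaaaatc
Peg3 promoter, chr7:6683131-6683380, minus strand: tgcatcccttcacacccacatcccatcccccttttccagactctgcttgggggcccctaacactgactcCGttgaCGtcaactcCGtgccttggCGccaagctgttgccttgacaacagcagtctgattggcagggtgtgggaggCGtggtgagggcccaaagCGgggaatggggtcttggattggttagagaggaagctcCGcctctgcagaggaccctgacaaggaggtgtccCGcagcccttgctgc
The Rian window holds 0 CpG, against 12 in Nnat and in Blcap, 10 in Mkrn3 and 8 in Peg3. Over 40 windows of the 27 members with an entry the median was 10 CpG, and over all 32851 windows it was 6. On both strands, the 6 letters TGCCGC, which the imprint-protecting zinc finger protein ZFP57 recognizes when methylated, were found in 8.68% of all windows and in 5 member windows, belonging to 4 genes (Zim1, Mest, Meg3 and Plagl1). The letters GCCATNTT, bound by YY1, were found in 3.91% of all windows and in 2 member windows, those of Ube3a and Mkrn3. In Mkrn3 the match begins 127 bases before the start. No member window held both motifs. A match describes the letters, and no binding or methylation was measured here.

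The 2 members of the Kcnq1 cluster that passed the filter did not pass the test. Kcnq1ot1, the paternally expressed noncoding RNA that silences its neighbours in cis, was at 2.59, 2.33 and 2.49 FPKM in siEXOSC3 cells against 2.18, 2.35 and 2.24 (log2 fold change 0.09 ± 0.0925 SE, adjusted p = 0.473 by limma). After DDX1 siRNA the values were 1.83, 2.40 and 2.46 FPKM against 2.16, 2.33 and 2.22 (log2 fold change -0.01 ± 0.108 SE, adjusted p = 0.966 by limma). The ranges of Kcnq1ot1 overlapped in both tables, and its sign was not stable (0.02 in siDDX1 after median centring, -0.06 in siEXOSC3 after quantile normalization). Phlda2, a maternally expressed placental growth regulator, had log2 fold changes of 0.23 in siEXOSC3 and 0.16 in siDDX1 cells, with adjusted p of 0.417 and 0.392. In siEXOSC3 replicate 3 Phlda2 was at 2.44 FPKM, against 5.07 and 4.58 in the other two libraries, and without that library the log2 fold change was 0.48 (adjusted p = 0.0193), whereas it was 0.07 (adjusted p = 0.832) without siEXOSC3 replicate 1 and 0.13 (adjusted p = 0.653) without siEXOSC3 replicate 2. After quantile normalization it was 0.11. The siDDX1 value ranged from 0.09 without scramble replicate 3 to 0.25 without scramble replicate 1.

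Peg10 and Sgce start 101 bases apart on opposite strands of chromosome 6 (NCBIM37) and are both expressed from the paternal copy. Peg10, a retrotransposon-derived placental gene, was at 87.3, 81.8 and 110.03 FPKM in siEXOSC3 cells against 76.5, 75.7 and 80.7, and at 98.8, 108 and 80.7 FPKM in siDDX1 cells against 75.9, 75.1 and 79.7. All knockdown values lay above scramble, but neither change passed the test (log2 fold change 0.25, limma adjusted p = 0.104 for siEXOSC3 and 0.30, 0.0893 for siDDX1). Both changes depended on single libraries. For siEXOSC3 the log2 fold change ranged from 0.12 without siEXOSC3 replicate 3 (adjusted p = 0.181) to 0.33 without siEXOSC3 replicate 2 (adjusted p = 0.0236). For siDDX1 it ranged from 0.21 without siDDX1 replicate 2 (adjusted p = 0.246) to 0.42 without siDDX1 replicate 3 (adjusted p = 0.00159). Sgce, the gene for epsilon-sarcoglycan, had log2 fold changes of -0.08 and -0.00195, with ranges that overlapped scramble.

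Ratios within a library do not depend on the scaling of that library. The log2 ratio of Peg10 to Sgce was 1.04 ± 0.247 (SD, n = 3) in siEXOSC3 and 0.71 ± 0.115 (SD, n = 3) in scramble cells, with no overlap. That of Ube3a to Snrpn was 1.90 ± 0.240 (SD, n = 3) against 2.73 ± 0.0487 (SD, n = 3), also with no overlap, and that of Nnat to Blcap was -3.41 ± 0.286 (SD, n = 3) against -3.48 ± 0.139 (SD, n = 3). The Ube3a to Snrpn ratio carries the uncertainty of Snrpn given above. The differences were 0.33, -0.83 and 0.07, in two-sided exact permutation tests with p = 0.1, 0.1 and 0.9. Without siEXOSC3 replicate 3 the first became 0.19 and the third -0.06, and without siEXOSC3 replicate 1 the third became 0.22. Such an exact test of 3 libraries against 3 cannot go below p = 0.1, and over the 6 ratios compared in both tables no adjusted p was below 0.3. In siDDX1 cells the ranges of all 3 ratios overlapped scramble, with differences of 0.31 for Peg10 to Sgce, -0.18 for Ube3a to Snrpn and 0.22 for Nnat to Blcap. Without siDDX1 replicate 1 the second became -0.08, without siDDX1 replicate 2 the third became 0.07, and without siDDX1 replicate 3 they became -0.31 and 0.41. The other pairs of cluster members set for comparison had a gene with a mean under 1 FPKM and were not compared.

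The remaining tested members did not pass in either knockdown. Impact was below scramble in all siEXOSC3 libraries (101.3, 76.9 and 100.5 FPKM against 120.3, 135 and 105), with a change of -0.37 ± 0.127 (SE) on the log2 scale (adjusted p = 0.0553 by limma). After quantile normalization it was called decreased (log2 fold change -0.37, adjusted p = 0.04996 by limma). The siDDX1 values of Impact were 107, 106 and 56.3 FPKM against 119, 134 and 103, and replicate 3 stood apart (log2 fold change -0.45 ± 0.229 SE, adjusted p = 0.221 by limma). Single libraries moved both values of Impact. In siEXOSC3 cells the log2 fold change ranged from -0.46 to -0.24 without 1 library (-0.24 without siEXOSC3 replicate 2), with adjusted p from 0.0362 (without siEXOSC3 replicate 3) to 0.172 (without scramble replicate 2). In siDDX1 cells it was -0.15 without siDDX1 replicate 3. Mest and Igf2r, the gene for the receptor that clears IGF2, had log2 fold changes of -0.07 and 0.22 in siEXOSC3 and of -0.19 and -0.15 in siDDX1 cells. None of these passed the test, and single libraries moved them. Mest in siDDX1 cells was -0.11 without scramble replicate 3. Igf2r in siEXOSC3 cells was 0.15 without siEXOSC3 replicate 3, 0.07 after quantile normalization and 0.34 with a pseudocount of 0.1. In siDDX1 cells Igf2r was -0.02 without siDDX1 replicate 3, -0.09 without scramble replicate 2, -0.25 without siDDX1 replicate 2 and -0.28 with the pseudocount of 0.1. Zrsr1 was at 1.09, 1.20 and 1.12 FPKM in siDDX1 cells against 0.915, 0.772 and 1.15, with overlap. Since it passed the filter through the siDDX1 libraries its own test values are not given, although it was counted among the tested members above. Its host Commd1, on the opposite strand, lay at 189.7 FPKM in scramble, so fragments of the Commd1 intron cannot be told apart from those of Zrsr1.

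Among the members under the filter, 10 had a mean from 0.1 to under 1 FPKM in the siEXOSC3 table. In 5 of them (Igf2, Magel2, Meg3, Rtl1 and Usp29) all siEXOSC3 values lay above scramble and in 0 all below. Over all 2523 genes in this range, 24.1% lay wholly above and 7.57% wholly below. The range was set on the mean of all 6 libraries, and 2 of the 10, Zim1 and Mirg, reached it only through the siEXOSC3 libraries, so no median of these members is given. These 5 are named because of their values. Igf2, the fetal growth factor gene, was at 0.406, 0.302 and 0.666 FPKM against 0.202, 0.204 and 0.231. In a fit without the filter the log2 fold changes were 0.40 for Rtl1 (adjusted p = 0.0138 by limma), 0.27 for Meg3 (0.0237), 0.16 for Magel2 (0.0431), 0.26 for Igf2 (0.0920) and 0.16 for Usp29 (0.202). With a pseudocount of 0.1 as well, chosen after the data had been seen, the adjusted p was 0.0273 for Rtl1, 0.0297 for Meg3 and 0.0671 for Magel2.

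In the siDDX1 table, 8 members lay in this range, of which 0 were wholly above scramble and 1, Usp29, was wholly below. Over all 2533 genes in the range, 11.3% lay wholly above and 9.91% wholly below. Mirg entered this range only through the siDDX1 libraries and Zrsr1 left it through them, so no median is given here either. Igf2 was at 0.233, 0.167 and 0.122 FPKM in siDDX1 cells against 0.200, 0.203 and 0.229, and overlapped scramble.

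H19, the maternally expressed noncoding RNA of the Igf2 locus, was at 0.0695, 0.0502 and 0.0209 FPKM in scramble, and at 0, 0.0237 and 0.0266 FPKM in siEXOSC3 cells. Airn, the noncoding RNA antisense to Igf2r, was at 0 in 2 of the 3 scramble libraries and did not exceed 0.197 FPKM anywhere. Plagl1, a zinc finger transcription factor, and Rasgrf1, a Ras exchange factor, were at or under 0.0151 FPKM in every library. Cdkn1c, a cyclin-dependent kinase inhibitor, and Ascl2, a placental transcription factor, lay between 0.0293 and 0.280 FPKM over both tables. At such levels a value rests on few fragments, and none of these genes passed in a fit without the filter.

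**Figure D4:**
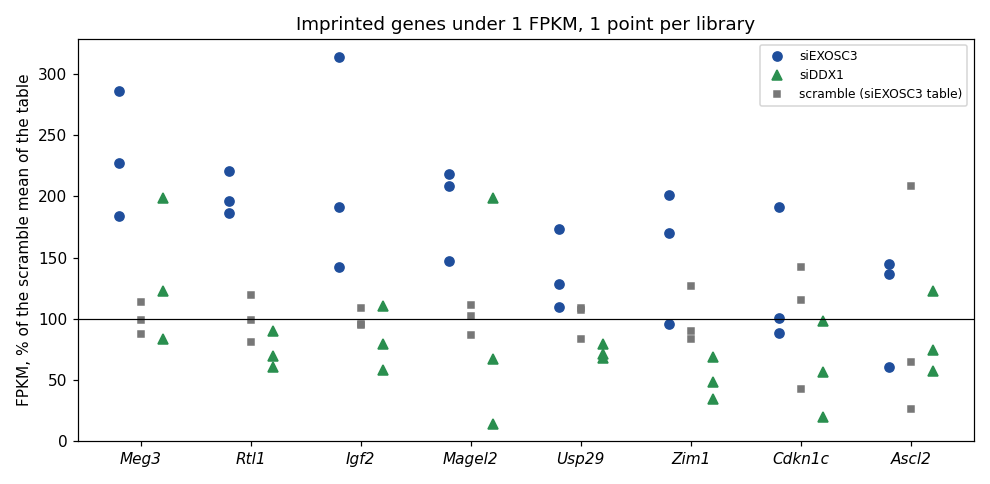
FPKM of 8 imprinted genes under the filter, as a percentage of the scramble mean of the same table (vertical axis), 1 point per library, with siEXOSC3 as circles, siDDX1 as triangles and the scramble libraries of the siEXOSC3 table as squares. All siEXOSC3 circles of Meg3, Rtl1, Igf2, Magel2 and Usp29 lie above the scramble squares, while in Cdkn1c and Ascl2 the groups overlap.

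Factors linked to imprints and DNA methylation, not all of which maintain imprints, were examined as a separate list of 19 genes, 15 of them tested. In siEXOSC3 cells 7 decreased and 0 increased, with a median log2 fold change of -0.23, where 15.7% of all genes tested decreased and 16.7% increased. On the log2(FPKM + 1) scale the largest changes were in Ctcf, the insulator protein that binds imprinting control regions, Trim28, the corepressor recruited by ZFP57, and Smchd1, a chromatin protein required at several clusters. Ctcf had 51.5 ± 1.98 FPKM (SD, n = 3) in scramble and decreased in siEXOSC3 cells to 33.6 ± 5.79 (SD, n = 3), a change of -0.61 ± 0.111 (SE) on the log2 scale (adjusted p = 0.00605 by limma). Trim28 had -0.43 (adjusted p = 0.00648 by limma) and Smchd1 -0.37 (adjusted p = 0.0102 by limma). As a share of scramble Ctcf was again first, at 65.2%, but the order after it differed. Dnmt3b, a DNA methyltransferase at 2.77 FPKM in scramble, was at 69.2%, Trim28 at 74.4% and Smchd1 at 76.9%. In siDDX1 cells, where 5.03% of all genes tested decreased and 5.61% increased, 0 of the 15 decreased and 1 increased, Tet2, a DNA demethylation enzyme (log2 fold change 0.36, adjusted p = 0.0415 by limma).

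A list of 35 other imprinted genes and their neighbours had 17 genes tested. In siEXOSC3 cells 6 increased and 0 decreased, with a median log2 fold change of 0.09, where 16.7% of all genes tested increased and 15.7% decreased. Herc3, a ubiquitin ligase gene with Nap1l5 in its intron, had a change of 0.94 ± 0.101 (SE) on the log2 scale (adjusted p = 9.97e-04 by limma) and Nap1l5, a paternally expressed nucleosome assembly protein gene, 0.89 ± 0.103 (SE, adjusted p = 0.00130 by limma). Peg13, a paternally expressed noncoding RNA in an intron of Trappc9, had 0.65 ± 0.0851 (SE, adjusted p = 0.00201 by limma), and Trappc9 itself also increased. In siDDX1 cells (5.61% of all genes increased and 5.03% decreased) 1 of the 17 increased, Trappc9 (log2 fold change 0.28, adjusted p = 0.0428 by limma), and 1 decreased, Mcts2, a paternally expressed retrogene (-0.43, limma adjusted p = 0.0178).

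Markers of the neuroblast and sympathetic lineage moved with the siEXOSC3 result. Of 13 tested, 9 increased and 0 decreased, where 16.7% of all genes tested increased, and the median log2 fold change of the 13 was 0.68. The summed level of the 14 markers was 1114 to 1214 FPKM in siEXOSC3 and 682 to 739 FPKM in scramble libraries. Chgb, a secretory granule protein, had a log2 fold change of 1.56, and the neuronal genes Stmn2 and Dbh had 1.06 and 0.88. In siDDX1 cells 2 of 13 (Chgb and Elavl4) increased and 0 decreased, where 5.61% of all genes tested increased, while the median log2 fold change of the 13 was -0.12. The sums were 703 to 777 FPKM against 677 to 730. The summed 4 fibroblast markers were lower in siEXOSC3 cells (6.58 to 7.68 against 8.68 to 11.4 FPKM, with Acta2 decreased), and the 2 endothelial markers higher (6.15 to 9.08 against 3.84 to 4.51 FPKM, with Pecam1 increased and Cdh5 below 0.1 FPKM). The 3 glial markers summed to 0.579 to 0.893 against 0.459 to 0.587 FPKM, and the 2 blood markers to 0.357 to 0.910 against 0.670 to 1.83 FPKM. In siDDX1 cells the glial sums were 1.07 to 1.16 against 0.453 to 0.582 FPKM and the endothelial sums 4.88 to 5.54 against 3.81 to 4.46 FPKM, both above scramble. The siDDX1 fibroblast sums were 6.40 to 8.56 against 8.58 to 11.3 FPKM, below scramble, and the blood sums 0.368 to 0.862 against 0.665 to 1.81 FPKM, with overlap. Pecam1 and Acta2, the tested genes of these lists, did not pass in siDDX1 cells. The part of these changes in the levels of the imprinted genes was not tested. In such bulk samples fewer cells of a type and less RNA per cell cannot be told apart.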

How the data were processed

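Total RNA of 9 N2A libraries (3 scramble, 3 siEXOSC3 and 3 siDDX1) was sequenced after ribosomal RNA removal. The submitters' processing notes name TopHat2 version 2.1.0, SAMtools, Cuffdiff version 2.2.1 and the mm9 genome, and the gene annotation is not given in the sources used here. The authors deposited FPKM per gene and library in 2 tables, scaled separately. The same scramble library differs between them by median factors of 1.00793, 1.00782 and 1.01188, so every test stayed within a table. FPKM are not counts, and no count model or counting interval was used.

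Genes with a mean of at least 1 FPKM over 6 libraries were tested on log2(FPKM + 1) in R version 4.3.3 with limma version 3.58.1 (two-sided, lmFit and eBayes, intensity trend, no covariates). P-values were adjusted by Benjamini-Hochberg over all genes tested, with a threshold of 0.05, and the fit was tested on simulated data. Ratios of cluster neighbours were compared by exact permutation tests. Tables and figures were made with Python version 3.11.15, pandas version 2.3.3 and matplotlib version 3.10.9.

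The members and lists were chosen with earlier results of these data known. Values per library were given for each member past the threshold in a knockdown, each tested noncoding member and each tested member of the Dlk1-Meg3, Igf2-H19 and Prader-Willi clusters, and for other lists at most 3 called genes per knockdown. Further members are named with values where these were seen first. Positions came from GENCODE on NCBIM37, which holds 32 of the 33 members (not Kcnq1ot1), and sequences from RefSeq on GRCm38.p6, with windows for 27. Alternatives were a pseudocount of 0.1, no filter, a mean of at least 5 FPKM, quantile normalization, median centring, no trend, the replicate number as a block, an adjusted p under 0.01 and leaving out each library.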

Additional observations from a re-analysis of the deposited data

How the results depend on the processing

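The counts of imprinted genes called and their median log2 fold changes were recomputed under each alternative. In siEXOSC3 cells the 6 increased and 2 decreased members became 3 and 1 with a mean of at least 5 FPKM, where fewer members were tested. Over all genes that setting gave 1382 and 1649 of 8810. Without the filter, where more members were tested, the counts were 9 and 2, beside 1833 and 1299 of 17015 genes. At an adjusted p under 0.01 they were 4 and 1, beside 869 and 480 of 11242 genes. After quantile normalization they were 5 and 3, with Impact also decreased, beside 1697 and 1863 of 11242 genes. Leaving out 1 library gave 5 to 7 increased and 1 to 3 decreased, with 1 decreased without scramble replicate 3. The median of 0.22 became 0.0901 without the filter, 0.0549 with at least 5 FPKM and 0.0907 after quantile normalization, and ranged from 0.13 to 0.21 without 1 library. It was 0.13 without siEXOSC3 replicate 3. For quantile normalization the cause was not tested. In siDDX1 cells the 1 increased member, Gnas, became 0 without the filter, after quantile normalization and at an adjusted p under 0.01, and 0 to 3 members increased without 1 library. Peg3 remained the 1 decreased member in each fit without 1 library. The median of 0.12 became -0.00496 without the filter, -0.00195 with at least 5 FPKM and 0.0579 without Zrsr1 (an alternative chosen after seeing the data), and ranged from 0.0712 to 0.115 without 1 library.

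Among single members signs changed only for values near 0 that passed in neither fit. In siEXOSC3 cells Kcnq1ot1 moved to -0.0581 after quantile normalization, and Mest ranged from -0.151 to 0.0118 without 1 library (above 0 without scramble replicate 3). In siDDX1 cells Kcnq1ot1 moved to 0.0168 and Sgce to 0.0235 after median centring. Without 1 library Kcnq1ot1 ranged from -0.0611 to 0.0835 (above 0 without siDDX1 replicate 1 or scramble replicate 2), Sgce from -0.0391 to 0.0278 (below 0 without siDDX1 replicate 2 or scramble replicate 3) and Ube3a from -0.113 to 0.0264 (above 0 without siDDX1 replicate 1). The siEXOSC3 difference in the log2 ratio of Nnat to Blcap ranged from -0.0554 to 0.224 without 1 library (below 0 without siEXOSC3 replicate 3). Of the single-gene values under these alternatives, 204 in siEXOSC3 and 211 in siDDX1 kept sign and side of the threshold, 7 and 8 lost a call, and 4 and 2 gained one. Over all genes, siEXOSC3 gave 1027 to 2379 increased and 583 to 2508 decreased without 1 library, 869 and 480 at an adjusted p under 0.01, and 1390 and 1059 with the block. For siDDX1 these were 95 to 1818 and 58 to 1706, 100 and 83, and 1085 and 808, with 387 and 330 without the filter.

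Correlations of the deviations of equal-numbered replicates over genes were 0.035, -0.31 and -0.13 for siEXOSC3, and -0.012, 0.38 and 0.37 for siDDX1. In siDDX1 cells replicates 2 and 3 thus deviated with the scramble library of their own number and replicate 1 did not, so the numbers were not taken as a pairing. With the replicate number as a block, 6 members increased and 2 decreased in siEXOSC3 cells, and 1 and 1 in siDDX1 cells. The absolute depth is unknown, and members under 0.1 FPKM rest on few fragments.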
